A study of Mus musculus with 6 samples.

Results

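The genes described here are the MYC family and its MAX network: the 3 MYC paralogues Myc, Mycl and Mycn, their obligate partner Max, and the other MAX-binding proteins Mga, Mnt, Mxd1, Mxd3, Mxd4 and Mxi1. Members were chosen by gene symbol, with earlier results of these data known. All 10 genes were found, with 17 of the 41174 probes on the array assigned to them by accession, and all 10 entered the test among 19847 features. The arrays carried RNA of 6 primary lines grown from lung tumours of C57BL/6J mice with the genotype Rb1L/L and Trp53L/L, conditional alleles of both genes, a small cell lung carcinoma model. Lines were grouped by label into pairs R716T2, R1563 and R1611, called pairs 1 to 3 below, each with 1 line labelled non-SMC and 1 labelled SMC (3 lines per group, 1 array each). The labels do not spell out SMC, and they give pairs 1 and 3 as female and pair 2 as male. All 6 lines share the Rb1 and Trp53 genotype, no treatment is named in the labels, and neither the age of the mice nor the source of Cre was given.

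MYC, MYCL and MYCN are basic helix-loop-helix leucine zipper transcription factors that bind the E-box CACGTG as dimers with MAX and activate genes of growth, ribosome production and metabolism. MXD proteins, MXI1, MNT and MGA compete for MAX: the MXD proteins, MXI1 and MNT bring SIN3 corepressors to the same sites, and MGA works within a polycomb complex that silences germline genes. Small cell lung carcinomas often amplify or overexpress 1 MYC paralogue. In mouse models MYCL is linked to neuroendocrine tumours and MYC to forms with fewer neuroendocrine features.

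Levels below are log2 signals after subtraction of the array's own 75th percentile, so that a level of 0 lies above 75% of the probes of the array. They are compared between lines for 1 probe, never between probes. Well above background is the scanner software's call for a spot against its local background. On an array 64.0% to 68.4% of probes passed it, and no spot was saturated. As a check of the labels, 9 to 12 of 12 neuroendocrine markers were well above background in every line. Their mean level was 2.54, 3.12 and 2.69 in SMC lines 1 to 3, and -3.57, 2.05 and -2.20 in non-SMC lines 1 to 3, so that non-SMC line 2 lay nearest to the SMC lines. The 10 mesenchymal markers averaged 4.17 to 4.68 in the non-SMC and -5.95 to -4.90 in the SMC lines. Rb1 was -2.09 to -0.38 in the non-SMC and 0.27 to 0.63 in the SMC lines and Trp53 was -0.36 to 0.14 throughout. Whether these probes lie in exons removed from the conditional alleles was not examined. SMC lines 1 and 2 and non-SMC lines 2 and 3 were on 1 slide, and the remaining 2 lines were each alone on a slide. Pair 2 alone had both of its lines on 1 slide, and in pairs 1 and 3 slide and group cannot be told apart.

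Setting each SMC line against its non-SMC partner asks which genes separate the 2 kinds of line. Of the 10 members 1 was called at an adjusted p under 0.05 by limma, and it was lower: Myc. Over all features 3.19% were called, 3.03% lower and 0.156% higher in SMC. With the array median as the scale the split over all features was 239 higher and 974 lower, in place of 31 and 602, and the median difference of all features was 0.10 in place of 0.18. At an unadjusted p under 0.05, 1 member was higher (Mxi1) and 1 lower (Myc), against 14.9% and 11.8% of all features (26.7% either way). Myc was high in the 3 non-SMC lines, Mycl was high in 2 SMC lines and in non-SMC line 2, and Mycn was high in SMC line 3. The 7 other members moved over much smaller ranges.

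Myc, the paralogue that drives proliferation in many tissues, was high in every non-SMC line and low in every SMC line. Its main probe is spotted 10 times on each array. The mean intensity of these spots, in the scanner's units, was 6181, 5919 and 5221 in non-SMC lines 1 to 3 and 85.0, 101.7 and 9.68 in SMC lines 1 to 3. The spots of an array differed little: their coefficient of variation was 3.17% to 8.26%, and 21.0% on the array of SMC line 3, where the signal was lowest. Relative to the array, Myc was 3.40, 3.38 and 3.25 in the non-SMC lines (SD 0.0794 between lines). In the SMC lines it was -3.04, -2.55 and -5.67. The groups did not overlap, and the spread was wide only within SMC, where line 3 lay 2.64 below line 1.

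Fitted over the 3 pairs, Myc differed by -7.10 ± 0.71 (SE, limma adjusted p = 0.0282), a 137-fold lower signal in SMC. The 95% interval ran from -9.04 to -5.15. It was lower in 3 of 3 pairs, by 86.6-fold, 60.8-fold and 485-fold in pairs 1 to 3. It ranked 242 from the lowest of the 19847 features. The 2 further Myc probes gave the same direction in each pair, at -6.66 ± 0.55 (limma adjusted p = 0.0177 over all kept probes) and -5.36 ± 0.29 (adjusted p = 0.00844). The weaker of them was -0.60, -0.24 and -0.32 in the non-SMC lines and -6.07, -5.28 and -5.90 in the SMC lines. It was not well above background in SMC line 1, and it did not place SMC line 3 below the others. On the shared slide alone, in a fit without pairing and with 2 lines per group, Myc differed by -6.11 ± 0.31 (limma adjusted p = 0.0106). Of all features 3.18% were called there, 3.08% lower. The call was lost without pair 1 (-7.43, adjusted p = 0.109) and without pair 3 (-6.18, adjusted p = 0.0657), where 2 pairs remain. Of 10 mesenchymal markers 9 were also lower in SMC by the same test over 3 pairs, beside 3.03% of all features. Vim, Sparc, Fn1, Col3a1, Col1a1 and Axl entered the test through the non-SMC lines alone, where they were high. Their calls are therefore descriptions. The summed level of the 10 markers on the linear scale was 551 to 1113 in the non-SMC and 0.527 to 1.51 in the SMC lines. Col3a1, Col1a1 and Axl were well above background in no SMC line. Of 4 tested leukocyte markers 1 was lower, Cd14 (-7.71 ± 0.70, limma adjusted p = 0.0233), which also entered through the non-SMC lines alone. Well above background were 7 of 7 leukocyte markers in non-SMC line 3, 6 in its partner SMC line 3, and 3 to 4 in each other line. The 3 tested smooth muscle markers had negative differences and did not pass, with Cnn1 at -9.06 (adjusted p = 0.0821), Tagln at -4.10 and Acta2 at -1.29. The part of these markers in the Myc difference was not tested.

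**Figure D1:**
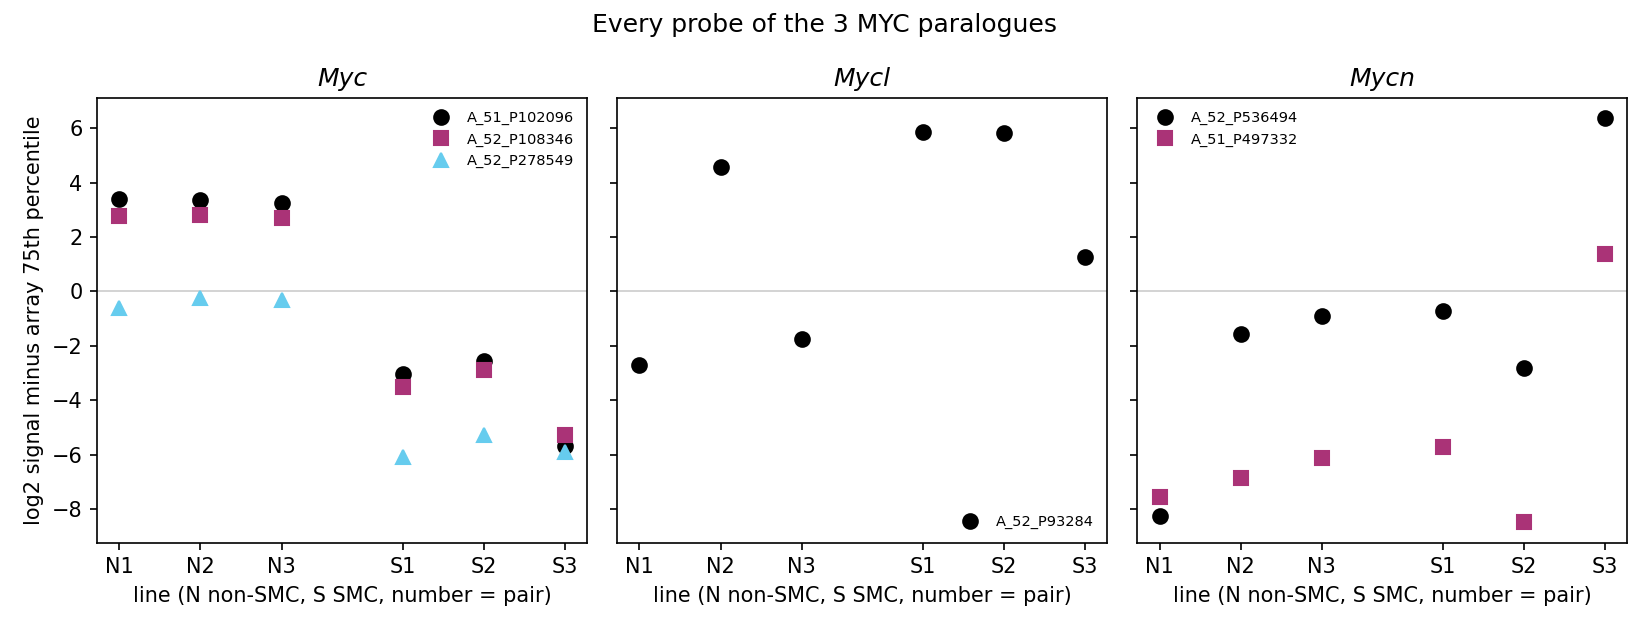
Log2 signal minus the 75th percentile of the array (vertical axis) for every probe assigned to Myc, Mycl and Mycn in the 6 lines (N non-SMC, S SMC, number of the pair), 1 symbol per probe. Myc lies above the SMC lines in all 3 non-SMC lines for each probe, Mycl is lowest in N1 and N3, and both Mycn probes peak in S3.

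Mycl, first found amplified in small cell lung carcinoma, separated the lines differently. Its 1 assigned probe was well above background on all 6 arrays. It read 90.6, 13468 and 163 intensity units in non-SMC lines 1 to 3 and 40364, 33463 and 1178 in SMC lines 1 to 3. On the log2 scale these levels were -2.69, 4.56 and -1.75 against 5.86, 5.81 and 1.28. Each SMC line was above its non-SMC partner, by 374-fold in pair 1, 2.38-fold in pair 2 and 8.17-fold in pair 3. The groups overlapped, since non-SMC line 2 was above SMC line 3. The mean difference of 4.28 ± 1.56 did not pass (limma adjusted p = 0.189), and its 95% interval ran from -0.04 to 8.59. Without pair 1 the difference was 2.14 (adjusted p = 0.271). In the unpaired fit it was 2.91 without non-SMC line 1 (adjusted p = 0.470), 3.38 without non-SMC line 3 (adjusted p = 0.495) and 6.54 without non-SMC line 2 (adjusted p = 0.0562), the non-SMC line with the highest mean level of neuroendocrine markers.

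In order of level, the Mycl probe ran from SMC lines 1 and 2, which differed by 0.04, through non-SMC line 2 and SMC line 3 to non-SMC lines 3 and 1. Neuroendocrine and epithelial markers are set beside this order, and neither followed it in every line. The summed linear level of the 12 neuroendocrine markers was 367, 307 and 255 in SMC lines 1 to 3 and 30.9, 146 and 20.8 in non-SMC lines 1 to 3. By this sum SMC line 3 lay above non-SMC line 2, and non-SMC line 1 above non-SMC line 3, the reverse of Mycl. Of the 8 epithelial markers, the summed linear level was 182 to 357 in the 4 lines of the shared slide, 1.36 in non-SMC line 1 and 3.80 in SMC line 3. Non-SMC line 3 had 336 by this measure and yet a Mycl signal of -1.75. The part of these markers in the Mycl levels was not tested.

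Mycn, the paralogue of neural and neuroendocrine tumours, was dominated by 1 line. Its brighter probe read 39896 intensity units in SMC line 3, and 427 and 84.2 in SMC lines 1 and 2. In the non-SMC lines it read 1.92, 193 and 289, the first not well above background. The log2 levels were -8.25, -1.57 and -0.92 in non-SMC and -0.71, -2.82 and 6.36 in SMC lines 1 to 3. SMC line 3 lay 7.07 above the next line, a 134-fold gap. By the second probe, which was well above background only in SMC lines 1 and 3 and so was not tested, SMC line 3 was 1.39 and the next line -5.72, a gap of 7.10. Set against the lowest signal well above background on the array of non-SMC line 1, SMC line 3 was at least 8621-fold higher than that line. No replicate of SMC line 3 exists, so this gap has no error beyond the agreement of both probes.

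The group difference of Mycn was 4.52 ± 2.05 (limma adjusted p = 0.247), with a 95% interval from -1.12 to 10.17. With non-SMC line 1 raised to that lowest signal it was 4.01 (adjusted p = 0.246). The pairs did not share a direction: Mycn was higher in SMC in pairs 1 and 3 (7.55 and 7.28) and lower in pair 2 (-1.25). On the shared slide alone, in a fit without pairing, the difference was -0.52 (limma adjusted p = 0.716). That fit leaves out non-SMC line 1 and SMC line 3, the lowest and highest Mycn lines. Without pair 2 the difference was 7.41 and passed (adjusted p = 0.0306). This call uses the 7.55 of pair 1, where non-SMC line 1 was not well above background. With that line raised, pair 1 was 6.00, and the call was not tested that way. Mycn entered the test through the SMC lines alone. The line with the highest Mycn was also the SMC line with the lowest Mycl and, by the main probe, the lowest Myc, and it was alone on its slide.

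The promoters of Mycn and Mycl are shown because these paralogues varied most between lines of the same group. They are the 250 bases before the RefSeq start on GRCm38.p6, 5′ to 3′ on the gene's strand. Capitals mark the E2F-type words TTTCGCGC and TTTGGCGC, searched on both strands because the RB protein, targeted in this model, restrains E2F factors. No entry for Myc was used.
Mycn, chr12:12941837-12942086, - strand: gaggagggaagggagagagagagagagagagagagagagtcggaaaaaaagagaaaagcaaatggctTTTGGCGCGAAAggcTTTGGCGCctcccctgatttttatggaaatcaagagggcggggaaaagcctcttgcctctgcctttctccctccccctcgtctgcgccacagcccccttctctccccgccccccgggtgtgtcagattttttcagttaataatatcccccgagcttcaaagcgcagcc
Mycl, chr4:122995681-122995930, + strand: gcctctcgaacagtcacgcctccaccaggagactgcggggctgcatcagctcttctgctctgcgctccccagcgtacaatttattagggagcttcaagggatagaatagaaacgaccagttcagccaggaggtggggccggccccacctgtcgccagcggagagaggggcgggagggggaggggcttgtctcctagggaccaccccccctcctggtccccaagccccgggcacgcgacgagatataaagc
Mycn held 3 such words between 183 and 161 bases before the start, the first and second sharing GCGC. Of all 32851 promoter windows of this length 0.654% held at least 1. The Mycl window held none, and neither window held CACGTG. A match of letters is a description and was not tied to binding or to the levels.

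Max, the shared partner, was the steadiest member. It was 3.12, 3.05 and 2.97 in the non-SMC lines and 3.20, 3.18 and 3.31 in the SMC lines. Its SMC values were all above its non-SMC values, yet by little. The difference of 0.18 ± 0.28 (limma adjusted p = 0.704, 95% interval -0.59 to 0.96) equalled the median difference of all features, 0.18, to 2 decimals. The whole range of Max over the 6 lines was 1.27-fold, against 538-fold for Myc, 374-fold for Mycl and at least 8621-fold for Mycn.

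**Figure D2:**
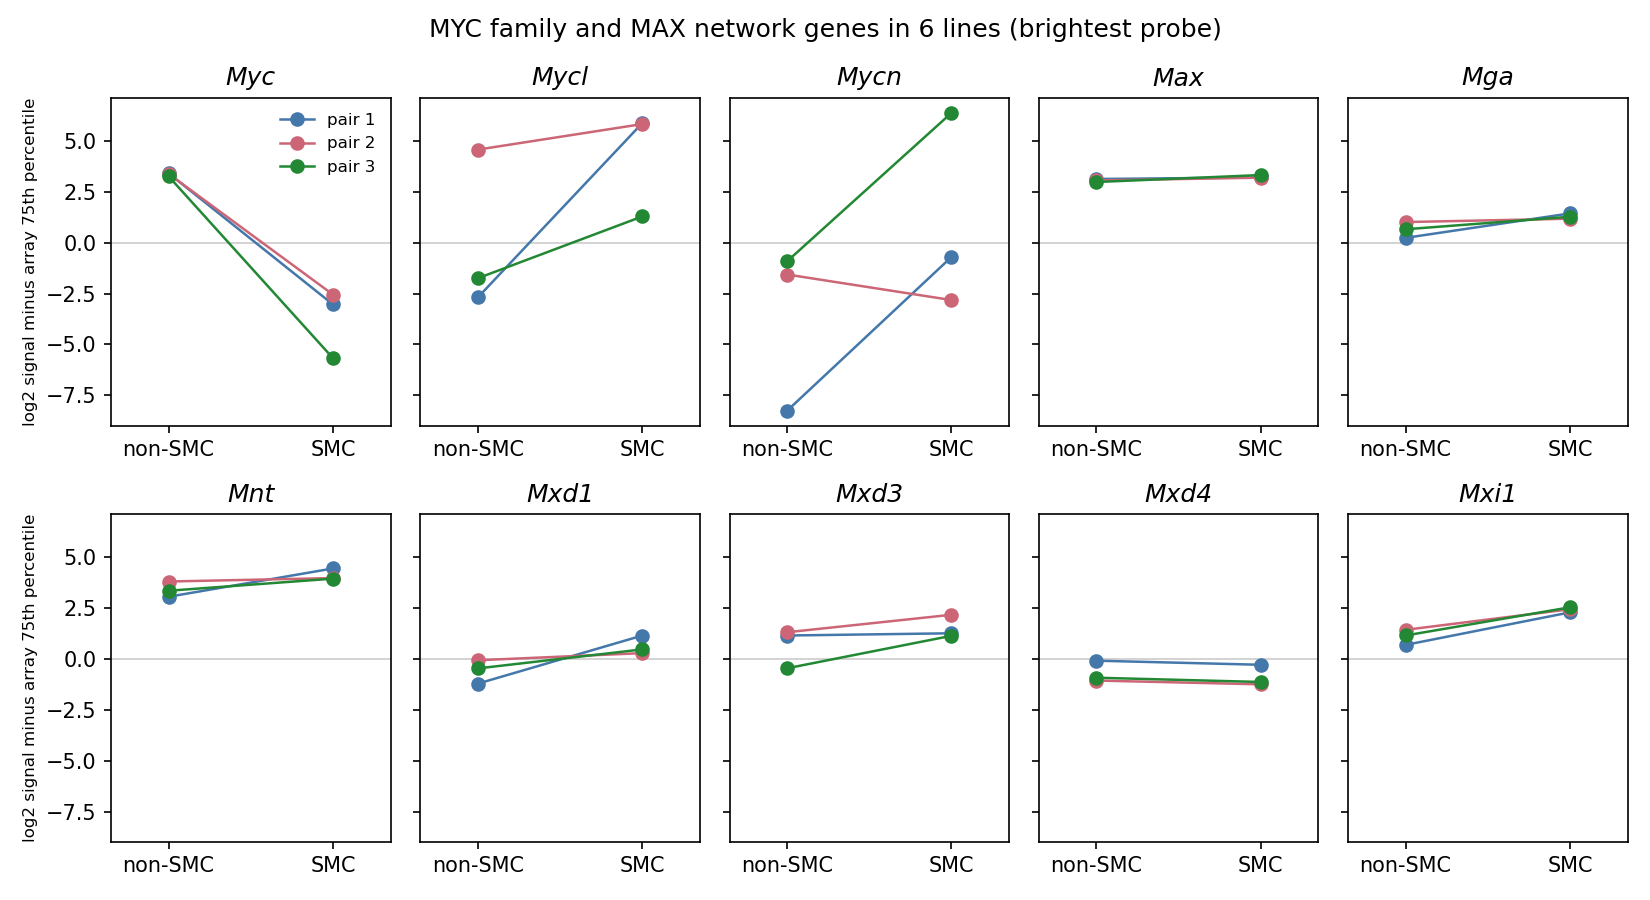
Log2 signal minus the 75th percentile of the array (vertical axis) for the brightest probe of each of the 10 genes; each point is 1 line and each coloured segment joins the non-SMC and SMC line of a pair. Myc, Mycl and Mycn span many log2 units, whereas Max stays between 2.97 and 3.31.

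Among the repressive partners no member passed the test, and 5 of the 6 had positive differences. Mxi1, which recruits SIN3 and opposes MYC, came closest. Its level was 0.68, 1.42 and 1.15 in non-SMC lines 1 to 3 and 2.28, 2.43 and 2.53 in SMC lines 1 to 3. The groups did not overlap, and the SMC line was 3.02-fold, 2.01-fold and 2.61-fold above its partner in pairs 1 to 3. The difference was 1.33 ± 0.30 (limma adjusted p = 0.114, unadjusted p = 0.0111), a 2.51-fold higher signal in SMC with a 95% interval of 0.50 to 2.16. Without the pairing its limma adjusted p was 0.0529, in a fit that called 6.29% of all features, 4.91% lower and 1.38% higher. Without the pairing and non-SMC line 2 it passed at 1.499 (adjusted p = 0.0381), in a fit that called 13.6% of all features, 7.86% higher and 5.78% lower.

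Mxd1, a MAX partner induced in differentiating cells, was -1.22, -0.07 and -0.47 in the non-SMC and 1.14, 0.28 and 0.46 in the SMC lines. Fitted over pairs it differed by 1.21 ± 0.50 (limma adjusted p = 0.220), with 2.36 in pair 1 and 0.35 in pair 2. A second, dimmer Mxd1 probe differed by 0.70 ± 0.28 and was likewise higher in all 3 pairs. Mxd3, a member expressed in proliferating cells, was 1.14, 1.30 and -0.46 against 1.25, 2.16 and 1.13, with overlapping groups and a difference of 0.85 ± 0.41 (adjusted p = 0.264). Its lowest line, non-SMC 3, lay 1.59 below any other. Mxd4 was the only repressive partner with a negative difference, -0.20 ± 0.28 (adjusted p = 0.675). Its pairs agreed closely, at -0.20, -0.19 and -0.21, while its level differed between pairs, being -0.09 and -0.29 in pair 1 and -1.25 to -0.93 in pairs 2 and 3. Its sign turned positive on the shared slide alone (0.22) and without non-SMC line 1 in the unpaired fit (0.10).

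Mnt, the broadly expressed MAX partner that antagonises MYC, was 3.05, 3.79 and 3.34 in the non-SMC and 4.43, 3.96 and 3.93 in the SMC lines. The groups did not overlap, and the fitted change of 0.72 ± 0.37 did not pass (limma adjusted p = 0.293). Mga, the giant MAX partner of the polycomb complex PRC1.6, was 0.23, 1.01 and 0.65 against 1.43, 1.17 and 1.27, a difference of 0.66 ± 0.35 (adjusted p = 0.297). The 2 other Mga probes differed by 0.53 ± 0.33 and 0.61 ± 0.35, and of the 3 probes 2 kept the groups apart. By the brightest probe of Mga, Mnt, Mxd1 and Mxi1 the order of the pairs was the same: pair 1 differed most and pair 2 least. Mycl had this order too, at 8.55, 1.25 and 3.03 in pairs 1 to 3. In Mycn pair 1 also differed most, but pair 2 had the opposite sign. Max (0.08, 0.14 and 0.34) and Mxd3 (0.11, 0.86 and 1.59) had the reverse, with pair 3 most and pair 1 least. In Myc and Mxd4 pair 3 differed most. The share of all features with any such order was not counted. By the second Mxd1 probe pair 3 differed most (0.85, with 0.79 in pair 1 and 0.46 in pair 2). Pair 2 is the only pair labelled male and the only pair whose lines shared a slide. Its non-SMC line had the highest neuroendocrine marker level of its group. The part of any of these was not tested.

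**Figure D3:**
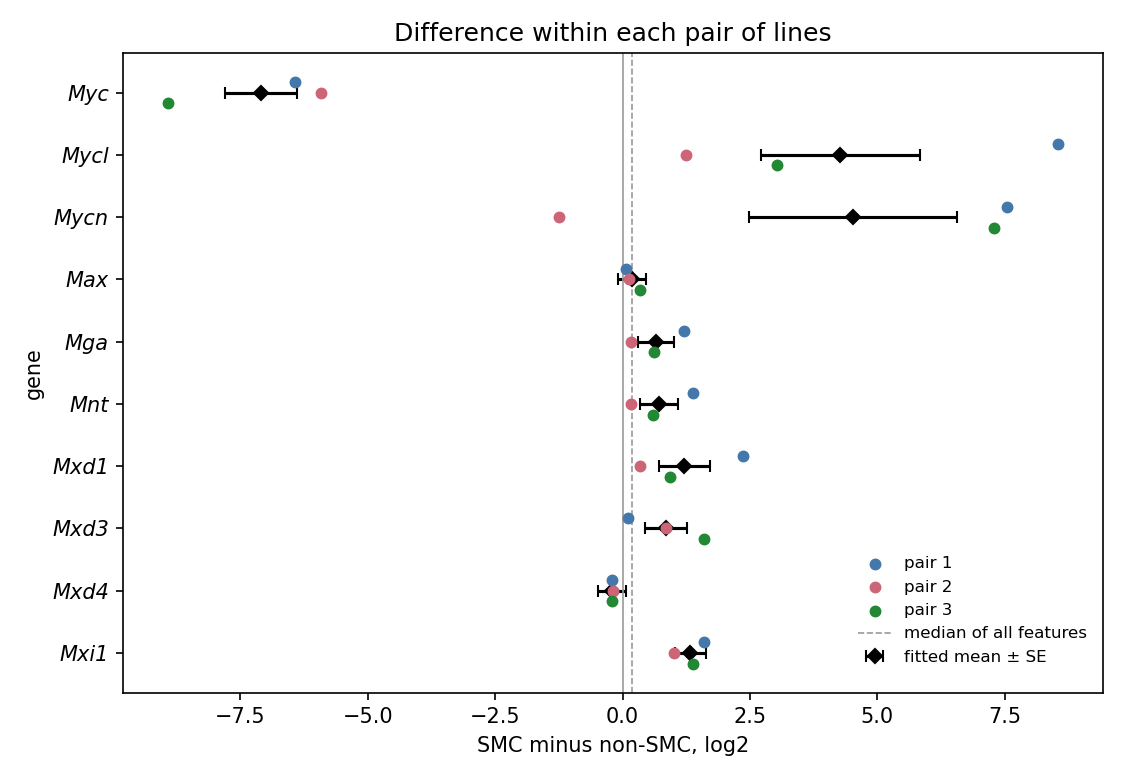
SMC minus non-SMC difference (log2, horizontal axis) for the 10 genes: coloured points are the 3 pairs, black diamonds with bars the fitted mean ± SE, and the dashed line the median of all features. Myc lies at -8.92 to -5.93 in every pair, whereas Mycn has pairs on both sides of 0.

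By pairs, 7 of the 10 members were higher in SMC in all 3 pairs and 2 were lower (Myc and Mxd4), against 33.6% and 21.9% of all features (55.5% either way). Groups did not overlap for 5 members higher in SMC (Max, Mga, Mnt, Mxd1 and Mxi1) and for 1 lower (Myc), against 22.8% and 15.4% of all features (38.2% either way). The median difference over the 10 members was 0.79, beside 0.18 over all features. Since the members were picked as a family with results known, these shares are descriptions.

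The promoters of Mnt and Mxd4 are shown because, of the 9 members with a RefSeq window, only these hold the MYC and MAX E-box CACGTG, marked in capitals. The word is its own reverse complement, so 1 match serves both strands.
Mnt, chr11:74830674-74830923, + strand: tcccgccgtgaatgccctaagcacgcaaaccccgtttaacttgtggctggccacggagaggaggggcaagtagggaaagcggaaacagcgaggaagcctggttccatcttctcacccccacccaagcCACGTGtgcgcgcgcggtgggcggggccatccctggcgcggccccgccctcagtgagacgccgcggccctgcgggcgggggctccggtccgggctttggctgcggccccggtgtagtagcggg
Mxd4, chr5:34187711-34187960, - strand: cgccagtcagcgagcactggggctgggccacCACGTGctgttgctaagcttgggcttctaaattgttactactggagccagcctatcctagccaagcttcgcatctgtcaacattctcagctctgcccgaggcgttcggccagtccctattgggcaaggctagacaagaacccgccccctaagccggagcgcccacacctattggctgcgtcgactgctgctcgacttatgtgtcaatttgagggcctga
The match ends 118 bases before the start in Mnt and 214 bases before it in Mxd4. Of all promoter windows 6.02% hold the word. The 2 genes did not move alike, with differences of 0.72 for Mnt and -0.20 for Mxd4, neither of which passed.

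Genes whose levels over the 6 lines were most like each paralogue were listed as a description, with no test. Over the 6 lines, 4 of them on 1 slide, 8 named genes correlated with Myc at over 0.99, 9 with Mycl and 2 with Mycn. The closest to Myc were Zdhhc5 (r = 0.994), which encodes a palmitoyltransferase, the ephrin gene Efnb2 (r = 0.994) and Ahnak (r = 0.993), a large scaffold protein. Zdhhc5 moved over a much smaller range than Myc, from 2.28 to 3.51. For Mycl they were the hyaluronan synthase Has3 (r = 0.999), Ubxn10 (r = 0.998) and the neuronal cadherin-like gene Clstn3 (r = 0.997). Clstn3 was -3.51, 2.37 and -3.21 in the non-SMC and 3.501, 3.79 and -0.69 in the SMC lines, the order of Mycl but for SMC lines 1 and 2. Has3 and Ubxn10 were well above background on only 4 arrays. For Mycn they were Tppp3 (r = 0.993), 6430571L13Rik (r = 0.9901) and 1700109H08Rik (r = 0.9895). These rest in part on the Mycn value of non-SMC line 1, which was not well above background, and 6430571L13Rik was well above background on 5 arrays.

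The wider pathway was described by lists of partners and targets, by counts and medians, beside 3.19% of all features called and a median of 0.18 over all features. Of 24 MYC cofactors and turnover factors, 0 were called (limma, 1 at an unadjusted p under 0.05) and the median was 0.27. The largest differences were in Mycbp2, a ubiquitin ligase that binds MYC (0.98 ± 0.33, adjusted p = 0.174), and Usp28, a deubiquitinase that stabilises it (0.66 ± 0.30, adjusted p = 0.245). Among 13 genes of the SIN3 and deacetylase corepressors that MXD proteins and MNT recruit, 0 were called (1 unadjusted), with Hdac2 at 0.96 ± 0.34 and Sin3b at -0.86 ± 0.33. In the parallel MLX arm, where MLX replaces MAX and responds to glucose, 0 of 5 were called (1 unadjusted). Mlxipl, which encodes the glucose sensor ChREBP, differed by 3.84 ± 1.43 (adjusted p = 0.193), and Txnip, a gene it activates, by 1.31 ± 0.42 (adjusted p = 0.161). Mlxipl was -6.07, 0.37 and -2.15 in the non-SMC and 1.75, 1.78 and 0.15 in the SMC lines, so that non-SMC line 2 again lay beside the SMC lines.

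Of the 13 tested subunits of the MGA complex PRC1.6, 0 were called (limma, 3 at an unadjusted p under 0.05) and 11 were positive (84.6%), with a median of 0.53. Over all features 26.7% reached that unadjusted p and 58.3% were positive. E2f6, which targets the complex to DNA, was 2.08, 2.22 and 1.77 in the non-SMC and 3.07, 3.19 and 3.53 in the SMC lines (1.24 ± 0.33, limma adjusted p = 0.133). Pcgf6, the subunit that defines it, differed by 1.21 ± 0.37 (adjusted p = 0.153). Of 16 germline genes that the complex silences, with usable spots, 8 were well above background in non-SMC line 2 and 4 to 6 in each other line, with 10 in at least 1 line, and Ddx4, Mael, Stk31, Meioc, Slc25a31 and Tex11 in none. Only 3 entered the test and 0 were called (1 unadjusted). They are Zcwpw1 (0.99 ± 0.31, adjusted p = 0.154), Sycp1 and the tubulin Tuba3a. Stag3, a meiotic cohesin subunit, was well above background in non-SMC lines 2 and 3 and SMC line 3, at -1.46, -0.98 and -2.01, and not in the others. In sequence, 10 of 16 germline genes with a promoter window held CACGTG (62.5%), against 6.86% of all genes. This list was chosen as known targets of an E-box-binding complex.

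Of 29 ribosome biogenesis targets, all well above background in every line, 0 were called (limma, 0 also at an unadjusted p under 0.05), beside 3.19% of all features called and 26.7% at that unadjusted p. Their differences ran from -0.72 to 0.41 with a median of -0.19, and 21 of 29 were negative. Mybbp1a, a nucleolar MYB-binding protein, differed by -0.72 ± 0.33 (adjusted p = 0.252) and Polr1a, the large subunit of RNA polymerase I, by -0.62 ± 0.38 (adjusted p = 0.353). Under the other 4 scalings 20 to 23 of the 29 were negative and the median was -0.27 to -0.11, that is, 0.27 to 0.36 below the median of all features in each.

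Of 36 growth and metabolism targets 1 was lower (2.78%, beside 3.19% of all features called), 35 did not pass, and the median was 0.11. At an unadjusted p under 0.05, 3 were higher and 4 lower, against 14.9% and 11.8% of all features. Ccnd2, a G1 cyclin, fell by 10.97 ± 0.81 on the log2 scale (limma adjusted p = 0.0158). It was 2.51, 4.98 and 3.94 in the non-SMC and -7.99, -8.07 and -5.41 in the SMC lines, where only 1 array was well above background. Ccnd2 thus entered the test through the non-SMC lines alone, where it was high. Raising dim values to the lowest signal well above background gave -9.81. Among those that did not pass were the glycolytic enzyme Hk2 at -5.98 ± 1.39 (adjusted p = 0.116; -5.26 with its 1 dim SMC value raised likewise), the transferrin receptor Tfrc at 1.64 ± 0.30 (adjusted p = 0.0868) and the MYC-induced factor Tfap4 at 1.38 ± 0.44 (adjusted p = 0.16). Tfrc was 0.55 to 0.70 in the non-SMC and 2.09 to 2.46 in the SMC lines, with no overlap. With normexp background correction 1 gene of this list was higher and 2 were lower. In this list 10 of 30 genes with a promoter window held CACGTG (33.3%), against 1 of 24 (4.17%) in the ribosome list.

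Of 20 genes that MYC is known to repress, 3 were lower in SMC, 0 were higher, and 17 did not pass, with a median of -1.32. Over all features 3.03% were called lower and 0.156% higher. At an unadjusted p under 0.05, 11 were lower and 3 higher, against 11.8% and 14.9% of all features. The called genes were Col1a2, a collagen chain (-11.76 ± 0.61, limma adjusted p = 0.00848), Gas1, a growth arrest and Hedgehog co-receptor gene (-6.76 ± 0.43, adjusted p = 0.0124), and Cdkn2b, which encodes the CDK inhibitor p15 (-6.05 ± 0.61, adjusted p = 0.0286). All 3 were lower in the lines with low Myc, and Col1a2 is also one of the mesenchymal markers above. Cdkn2b was 4.05, 3.74 and 4.70 in the non-SMC and -0.47, -3.24 and -1.95 in the SMC lines, measured on all arrays. Gas1 was well above background on 1 SMC array, so it entered the test through the non-SMC lines alone, where it was higher. Raising its dim values likewise gave -5.33. With the array median as the scale 4 genes of the list were lower and 1 was higher. Among those that did not pass, the largest differences were in Thbs1, Clu and Cdkn1c. Thbs1 differed by -7.62 ± 1.22 (limma adjusted p = 0.0703), or -7.08 with dim values raised. Clu differed by -7.15 ± 2.18 (adjusted p = 0.153) and Cdkn1c by 4.30 ± 1.74 (adjusted p = 0.214). Cdkn1a, the p21 gene and a textbook target of MYC repression, differed by 2.38 ± 0.74 without passing (adjusted p = 0.156).

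**Figure D4:**
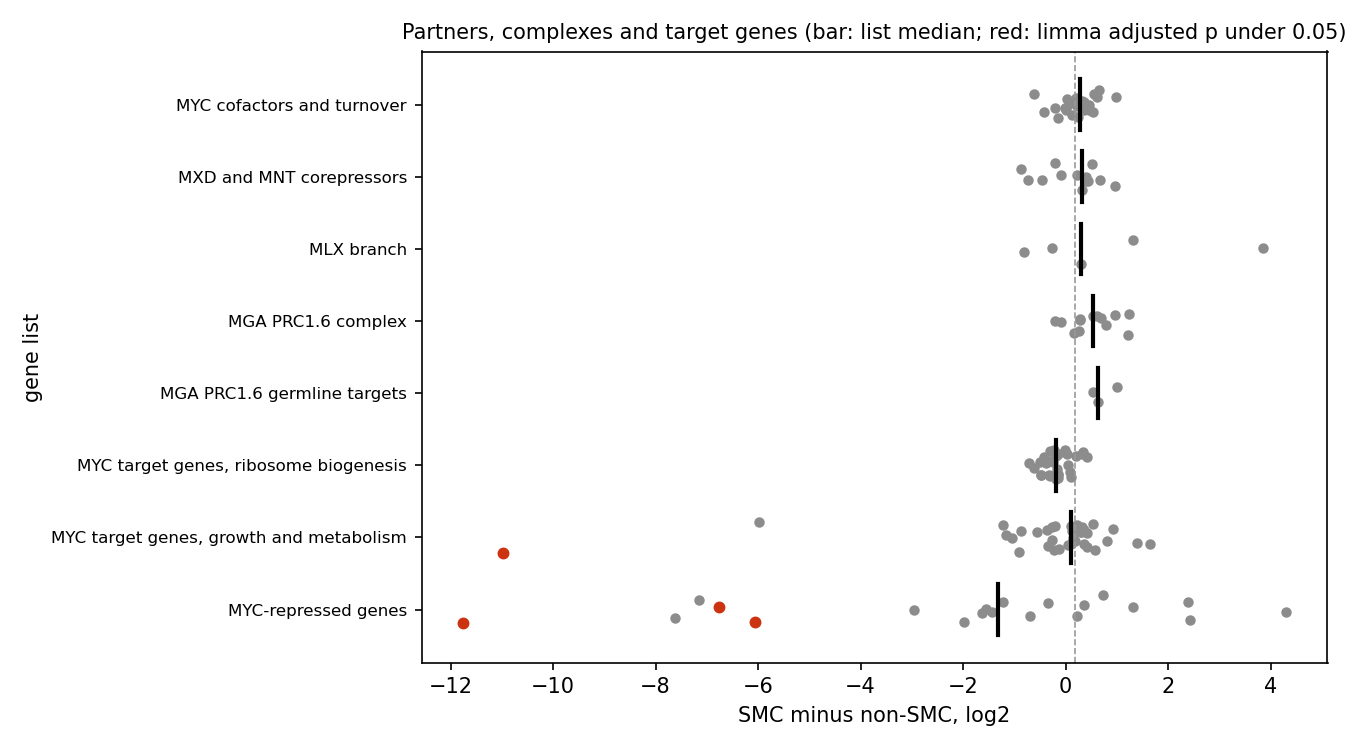
SMC minus non-SMC difference (log2, horizontal axis) of each tested gene in 8 lists of MYC and MAX partners and targets; bars are list medians, red points genes at a limma adjusted p under 0.05, and the dashed line the median of all features. Called genes are Ccnd2, Col1a2, Gas1 and Cdkn2b, all lower in SMC, while the 29 ribosome biogenesis targets stay between -0.72 and 0.41. Ccnd2 and Gas1 entered the test through the non-SMC lines alone.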

How the data were processed

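Arrays were 1-colour (Cy3) Agilent designs numbered 014868. Per the file headers, the authors quantified scans using Agilent software, Feature Extraction version 10.7.3.1, written 10.7 in the notes on processing. The deposited processed intensity is background-subtracted and detrended within the array and not normalized between arrays. The deposited series table holds log2 values with equal quantiles in all columns. Its making is not given in the sources used here.

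Here, 1639 control spots and outlier spots were left out, spots of a probe were averaged as log2, and each array's 75th percentile (485 to 696 intensity units) was subtracted. The files hold no symbol column, so 27479 of 41174 probes were named by accession through a RefSeq table of GRCm38.p6. Further probes of the members among the 13695 unnamed ones would be missed. The headers name mm9, so gene coordinates were not used. Probes stayed in when well above background on every array of SMC or of non-SMC (50 probes without a usable spot on an array were dropped), and the brightest kept probe stood for a gene. Differences were tested with limma 3.58.1 in R 4.3.3, two-sided, with pair and group in the model (2 residual and 2.07 prior degrees of freedom) and Benjamini-Hochberg adjustment over all features. The labels pair the lines. Across features, the partners' distances from their group means had correlations of -0.013, 0.136 and -0.00235 in pairs 1 to 3, so the values themselves do not show the pairing. P-values and SEs rest on the spread among 3 pairs, which limma draws toward a value estimated over all features. For Mxd4 the SE of 0.28 was therefore far wider than the spread of its own pairs. With so few arrays, precision is limited. "At least" folds use the lowest value well above background on the dim array.

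The members and lists were chosen with earlier results of these data known. Named genes were all members, per list up to 4 called genes (or the 2 largest differences), and the 3 genes most like each paralogue. Stag3, Cd14, Cnn1, Tagln, Acta2, Tfrc, Tfap4, Hk2, Thbs1, Clu, Cdkn1c, Cdkn1a, Sycp1, Tuba3a and the undetected germline genes were named after their values were seen. The fit was tested on simulated data. Alternatives were other normalizations, background correction, filters, probe summaries, no pairing, slide blocks and left-out lines.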

Additional observations from a re-analysis of the deposited data

Results flagged for a closer look

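Mycn is singled out because its difference went opposite ways in the pair labelled male and the pairs labelled female. In the male pair, pair 2, SMC minus non-SMC was -1.25, and in the female pairs 1 and 3 it was 7.55 and 7.28. The 7.55 uses non-SMC line 1, where Mycn was not well above background. Raising that line to the lowest signal well above background on its array gave 6.00. The difference between the sexes was not tested; there is 1 male pair, whose lines were also the only partners on the same slide. No group had 4 or more lines, so single lines were not screened as outliers.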

How the results depend on the processing

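With 3 lines per group, which lines entered mattered most. The number of members past the threshold was 1 in all settings except the ones that leave out lines, where it ranged from 0 to 2: 0 without pair 1 or pair 3, and 2 without pair 2 (Myc and Mycn) and without non-SMC line 2 in the unpaired fit (Myc and Mxi1). Over all features the count was 633; it was 1213 with the array median in place of the 75th percentile (239 higher, 974 lower), 390 with no filter, 139 with detection on all 6 arrays, and 1249 with no replicate block (274 of them higher). Leaving out a pair or a line gave 0 (without pair 3, limma, where unadjusted p was under 0.05 for 924 features above and 1743 below) to 2706 (without non-SMC line 2 and the pairing), with 207 without pair 1 and 1016 without pair 2. Without the pairing Myc stayed called (adjusted p = 0.0079) and no other member gained or lost a call. Over its 20 settings the Myc difference was -7.70 to -5.65. Mycn turned to -0.52 on the shared slide alone, an unpaired fit that leaves out its lowest and highest lines, non-SMC line 1 and SMC line 3. Mxd4 turned to 0.22 there and to 0.10 without non-SMC line 1 and the pairing. Both settings leave out non-SMC line 1, where Mxd4 was highest. The cause was not tested. The other 7 members kept their sign in every setting run. Setting dim signals to the floor was added after the data were examined. Signals near background limit Myc in SMC line 3 and Mycn in non-SMC line 1.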
